A study of Mus musculus with 10 samples.

Results

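Glycolysis and the transcriptional response to low oxygen were followed through 34 genes: transporters of glucose and lactate, the enzymes from hexokinase to lactate dehydrogenase, regulators of flux, and targets and sensors of the hypoxia-inducible factors (HIF). A gene counted as measured when at least 1 probe set carried its symbol and no other, and it was represented by the probe set with the highest mean over all arrays; 31 of the 34 were measured, among 18193 genes in all. Gpi1 and Eno1 were not analysed here, and Bnip3l was not taken because its 3 probe sets also carry the symbol of a pseudogene. RNA was taken from lower incisor dental mesenchyme of wild-type C57BL/6J mice at postnatal day 60. In each of 5 mice the inferior alveolar nerve, which supplies the lower teeth, had been cut out on 1 side 2 weeks before; 5 arrays hold the operated side (denervated) and 5 the other side of the jaw (contralateral). All animals were thus operated, and no sham-operated or unoperated mouse is among the samples, so that effects of surgery and of missing innervation cannot be told apart. The sex of the mice is given as not determined. Arrays with the same number in both groups are called a pair here and were taken to come from 1 mouse, because they deviated together (correlations from 0.182 to 0.572); the labels do not state it.

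Glycolysis turns glucose into pyruvate in the cytosol, and lactate dehydrogenase passes pyruvate on to lactate when mitochondria do not take it up. Prolyl hydroxylases of the EGLN family mark the HIF alpha subunits for destruction while oxygen is present; when oxygen falls, the subunits persist, pair with ARNT and bind short DNA elements near genes for glucose uptake, glycolysis, mitophagy and collagen hydroxylation. The pulp of a continuously growing incisor is enclosed in dentin and supplied through its open root end, and its odontoblasts secrete large amounts of collagen.

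The arrays correlated between 0.982 and 0.997 over all genes, and 2 stood apart in cell type genes. Denervated array 3 had a dental epithelium score (mean of gene-centred log2 values of 12 markers of ameloblasts and other epithelium) of -2.51, against -0.10 to 0.61 on the other 9 arrays. Denervated arrays 2 and 3 had the highest macrophage scores, 0.59 and 0.65 against at most 0.01 elsewhere, and the highest smooth muscle and pericyte scores, 0.78 and 0.46 against at most -0.01. All 12 macrophage markers and 11 of 12 smooth muscle and pericyte markers had a higher mean on the denervated side, with mean levels of 5.45 to 6.17 against 5.15 to 5.40 and of 5.46 to 6.42 against 5.36 to 5.51. Without denervated arrays 2 and 3 these counts were 10 of 12 (median difference 0.26 in place of 0.48) and 7 of 12 (0.12 in place of 0.34). All 9 measured odontoblast markers had a mean of 4 or more, in keeping with the tissue label. So did all 12 epithelial markers, although the label names mesenchyme alone. The mean level of the epithelial markers ran from 6.12 to 9.18 denervated and from 8.54 to 9.24 contralateral, with 11 of 12 lower in the mean on the denervated side (median difference -0.38). Without denervated arrays 2 and 3 the direction turned, with 7 of 12 higher and a median of 0.01. In bulk RNA fewer cells of a type and less RNA per cell cannot be told apart. Results that rest on denervated arrays 2 and 3 are given below with and without them. The fits without them compared denervated arrays 1, 4 and 5 with all 5 contralateral arrays, so pairs 2 and 3 were split. Such values can differ from those of pairs 1, 4 and 5 alone.

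No member of the group passed the test for a difference between denervated and contralateral incisors, and no gene of the array did (limma, Benjamini-Hochberg adjustment over 18193 genes; 0% of genes called at an adjusted p under 0.05, smallest adjusted p 0.79). With the pair as a block the smallest adjusted p among the 31 was 0.369, and 0% of all genes were called. The values below are therefore descriptions without a call. Log2 values are set side by side only for the same gene, since probe sets differ in brightness. Of the 31 genes 23 had a mean log2 value of 4 or more and 4 had a mean under 2, where a level cannot be told from background.

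As a whole the group stayed close to the background of all genes. Its median difference (denervated minus contralateral, log2) was 0.02, the same as the median of all genes, 0.02, and 19 of the 31 genes (61.3%) were higher in the mean on the denervated side, against 55.8% of all genes, while 12 (38.7%) were lower, against 44.2%. The mean of gene-centred values per array was 0.042, 0.050, -0.002, -0.001 and -0.121 in denervated arrays 1 to 5 and 0.101, 0.079, -0.106, -0.046 and 0.004 in contralateral arrays 1 to 5. The group means were -0.01 ± 0.07 and 0.01 ± 0.09 (SD, n = 5), a difference of -0.01 with both groups spread across 0, opposite in sign to the median. Within the pairs this mean differed by -0.059, -0.029, 0.104, 0.045 and -0.125, and 12, 15, 21, 16 and 10 of the 31 genes were higher on the denervated side of pairs 1 to 5. The share of all genes higher in these pairs was 46.1%, 57.6%, 60%, 52.4% and 48.1%. Leaving out denervated arrays 2 and 3 gave a median of -0.06 and 13 of 31 genes (41.9%) higher, against 49.1% of all genes. Centring on the array median left 13 higher as well, against 42.2% of all genes. Among genes with a mean of 4 or more, the 23 members had a median of 0.013 with 56.5% higher, against 0.044 and 63.9% for all such genes.

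**Figure D1:**
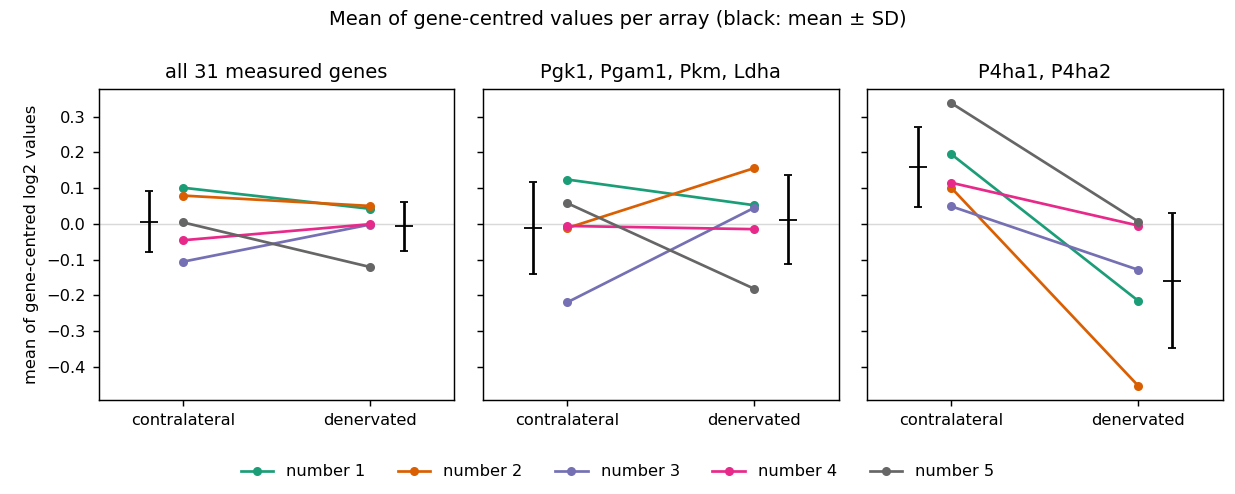
Mean of gene-centred log2 values per array (vertical axis, log2) in the contralateral and denervated incisors for all 31 genes, for the 4 measured enzymes from phosphoglycerate kinase to lactate dehydrogenase, and for the collagen prolyl hydroxylases. Lines join arrays of the same number, and black bars show mean ± SD (n = 5). The first 2 panels have lines running both ways; in the third panel all 5 lines run downward.

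Single members differed in opposite directions. At an unadjusted p under 0.05 limma listed 1 gene higher, Pfkl (3.23% of the group against 4.1% of all genes), and 2 genes lower, P4ha1 and Bnip3 (6.45% against 2.11%). With the pair as a block P4ha2 joined the lower genes, giving 9.68% against 2.93%, and the higher side held 1 gene against 6.99% of all genes. Without denervated arrays 2 and 3, Pfkl (3.23% against 2.45% of all genes higher) and P4ha1 and Pfkm (6.45% against 2.26% lower) had an unadjusted p under 0.05, while that of Bnip3 was 0.0708 and that of P4ha2 0.43. Pfkl and Epas1 were higher in all 5 pairs (6.45% of the group, 6.58% of all genes), and no member was lower in all 5 (3.8% of all genes). In no member were the groups free of overlap (0.528% of all genes above and 0.423% below).

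A larger set was lower in 4 of the 5 pairs: 11 of the 31 genes, or 35.5%, against 15% of all genes. Higher in 4 of the 5 were 5 genes, or 16.1%, against 19.1% of all genes. The 11 genes lower in 4 pairs were Slc2a3, Hk2, Pfkm, Pfkp, Aldoa, Pfkfb3, Egln1, Bnip3, Ndrg1, P4ha1 and P4ha2. In the mean Slc2a3 was higher on the denervated side, by 0.05, with pair 3 at 1.12. The count rests on 1 probe set a gene, and other probe sets of these genes did not all follow. The second brightest probe set of Slc2a3 was higher in all 5 pairs. The second probe sets of Egln1 (0.25) and P4ha1 (0.04) were each higher in 3 pairs. Some other probe sets of Aldoa were lower in only 3 pairs, and the dim ones of Pfkp in 3 and 1. The other probe sets of Ndrg1 and Pfkfb3 were lower in 4 pairs. The pair that went the other way was pair 3 in 6 of them (Slc2a3, Pfkm, Pfkp, Aldoa, Egln1 and P4ha1) and pair 4 in 5 (Hk2, Pfkfb3, Bnip3, Ndrg1 and P4ha2). Pairs 1, 2 and 5 were the exception in none of the 11. Among all genes lower in exactly 4 pairs, pairs 3 and 4 were also the most frequent exceptions, at 22.7% and 30.6%, with 16%, 16.1% and 14.5% for pairs 1, 2 and 5. In pairs 1, 4 and 5, which hold neither of the arrays that stand apart, 8 of the 31 genes (25.8%) were lower each time, against 15.5% of all genes. Of these 8, Slc2a3, Pfkm, Pfkp, Aldoa, Egln1 and P4ha1 are the 6 with pair 3 as the exception. They are lower in pairs 1, 4 and 5 by that choice, which adds nothing to the count above. The others were Pgk1 and Ldha, whose mean differences have no settled sign. Pfkl, Pdk1 and Epas1 (9.68%) were higher each time, against 14% of all genes.

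**Figure D2:**
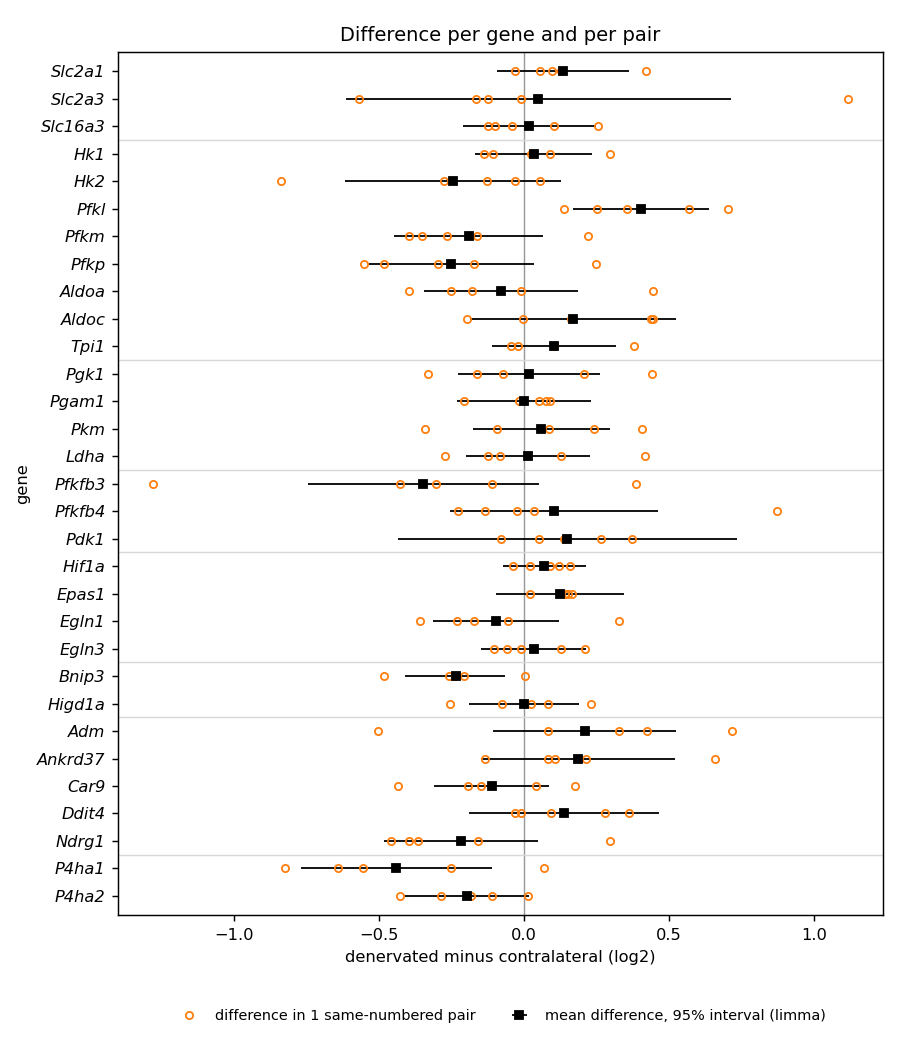
Denervated minus contralateral difference (horizontal axis, log2) for each of the 31 genes, ordered by role. Black squares with bars are the mean difference and its 95% interval from limma (n = 5 arrays per group), and orange circles are the 5 pair differences. The intervals are from the fit without the pair as a term. Only those of Pfkl, Bnip3 and P4ha1 leave out 0, before any adjustment for the number of genes. With the pair as a block, not drawn, the interval of P4ha2 also left out 0 (-0.39 to -0.01).

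The promoters of the 4 genes with an unadjusted p under 0.05 in the fit with the pair as a block, 1 higher and 3 lower, are printed to show which of them hold the core letters of the hypoxia response element, ACGTG or GCGTG on either strand. Each is the 250 bases before the start of the gene, from RefSeq's annotation of GRCm38.p6, 5′ to 3′ along the gene, with the matches in capitals.
Pfkl, chr10:78009808-78010057, minus strand: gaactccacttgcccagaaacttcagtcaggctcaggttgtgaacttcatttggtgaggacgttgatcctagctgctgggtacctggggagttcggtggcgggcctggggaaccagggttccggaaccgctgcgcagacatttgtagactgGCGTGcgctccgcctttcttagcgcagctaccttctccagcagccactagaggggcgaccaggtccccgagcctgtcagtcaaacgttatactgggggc
P4ha1, chr10:59323046-59323295, plus strand: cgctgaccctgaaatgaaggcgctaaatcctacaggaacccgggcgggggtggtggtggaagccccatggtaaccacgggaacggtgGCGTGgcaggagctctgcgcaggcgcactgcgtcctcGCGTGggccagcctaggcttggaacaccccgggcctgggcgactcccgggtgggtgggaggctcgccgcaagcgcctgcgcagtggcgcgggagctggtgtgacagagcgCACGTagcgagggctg
P4ha2, chr11:54100674-54100923, plus strand: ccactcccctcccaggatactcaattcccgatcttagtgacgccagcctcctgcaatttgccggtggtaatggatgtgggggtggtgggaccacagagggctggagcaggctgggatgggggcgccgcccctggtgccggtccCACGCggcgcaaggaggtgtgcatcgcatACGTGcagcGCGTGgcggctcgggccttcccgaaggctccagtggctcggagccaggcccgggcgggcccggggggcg
Bnip3, chr7:138909507-138909756, minus strand: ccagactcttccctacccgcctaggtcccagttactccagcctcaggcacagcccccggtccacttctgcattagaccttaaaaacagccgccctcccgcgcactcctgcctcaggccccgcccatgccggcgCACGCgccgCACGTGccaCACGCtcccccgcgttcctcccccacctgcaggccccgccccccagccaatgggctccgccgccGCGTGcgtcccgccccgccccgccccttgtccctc
The window of Pfkl holds 1 match, 99 bases before the start, and those of P4ha1 and P4ha2 hold 3 each. That of Bnip3 holds 5, counting separately the overlapping matches of a palindrome that lies 108 bases before the start. Among the 28 measured members with a listed promoter, 24 (85.7%) hold a match, against 38.6% of the 27025 genes whose first listed promoter was searched. The members' windows are also richer in G and C, with a median of 65.2% against 52%, and the group was assembled as hypoxia genes, so the shares describe the list. A match is a run of letters, not a bound site, and the gene that was higher and the 3 that were lower all hold at least 1.

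None of the 3 transporters passed the test. Slc2a1, the ubiquitous glucose transporter, had log2 values of 6.996, 7.09, 7.14, 7.17 and 6.76 in denervated arrays 1 to 5 and 6.94, 6.66, 7.01, 7.08 and 6.79 in contralateral arrays 1 to 5. The groups overlapped over most of their range, and the difference was 0.13 ± 0.10 (SE; adjusted p = 0.823), higher in 4 of 5 pairs and on all 3 probe sets. It was 0.08 without contralateral array 2 and 0.08 without denervated arrays 2 and 3. Slc2a3, a high-affinity glucose transporter of neurons and white blood cells, had 5.11, 5.89, 5.36, 5.18 and 4.48 denervated and 5.28, 5.90, 4.24, 5.30 and 5.05 contralateral. Both arrays of pair 2 were the highest of their groups. The difference was 0.05 ± 0.30 (adjusted p = 0.98), with pair 3 at 1.12 and the other pairs between -0.57 and -0.01. It was -0.23 without denervated arrays 2 and 3, -0.18 without contralateral array 3 and -0.003 after quantile normalization. It was 0.24 without contralateral array 2 and 0.10 as the mean of its 4 probe sets, of which the second brightest (mean 3.78) gave 0.24 and was higher in all 5 pairs. The sign is not settled. Slc16a3, the lactate exporter of glycolytic cells, lay between 1.08 and 1.56 on all arrays, within the dim range.

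Among the enzymes of the first steps, the 3 phosphofructokinase subunits had differences of opposite sign. Phosphofructokinase commits sugar to glycolysis as a tetramer of liver, muscle and platelet type subunits. Pfkl, the liver type subunit, had 5.55, 5.75, 5.42, 5.28 and 5.41 in denervated arrays 1 to 5 and 5.30, 5.05, 5.06, 5.14 and 4.84 in contralateral arrays 1 to 5. Only contralateral array 1 reached into the denervated range. The means were 5.48 ± 0.18 and 5.08 ± 0.17 (SD, n = 5), a difference of 0.40 ± 0.11 (SE; 95% interval 0.17 to 0.64; 1.32-fold), with an unadjusted p of 0.00294 and an adjusted p of 0.79 from limma. Its pair differences were 0.25, 0.70, 0.36, 0.14 and 0.57, and leaving out any single array kept the difference between 0.34 and 0.46, as did leaving out denervated arrays 2 and 3, at 0.34. The other 2 probe sets of Pfkl, both with a mean below 4, gave 0.10 and 0.13. The macrophage score was also higher in all 5 pairs, by 0.21, 0.71, 0.90, 0.17 and 0.35, and its part in the Pfkl value was not tested.

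Pfkm, the muscle type subunit, had 6.87, 6.71, 7.16, 6.76 and 6.46 denervated against 7.13, 7.06, 6.94, 6.93 and 6.86 contralateral. It was lower in every pair but the third, where it was higher by 0.22, and the mean difference was -0.19 ± 0.12 (adjusted p = 0.804), or -0.29 without denervated arrays 2 and 3. Skeletal muscle genes were dim: 12 of 13 markers had a mean below 2, and the mean level of the list was 1.05 to 1.16 in the denervated and 1.06 to 1.23 in the contralateral incisors. Pfkp, the platelet type subunit, had 4.06, 4.29, 4.24, 4.21 and 4.05 denervated and 4.36, 4.77, 3.99, 4.38 and 4.61 contralateral, a difference of -0.25 ± 0.13 (adjusted p = 0.791), or -0.31 without denervated arrays 2 and 3. Here too the third pair was the exception, through a contralateral value below all denervated ones.

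The hexokinases, which trap glucose by phosphorylation, were represented by Hk1 and Hk2. Hk1, the form found in most tissues, had means of 7.39 ± 0.10 and 7.36 ± 0.18 (SD, n = 5) and a difference of 0.03 ± 0.09 with no settled sign: it was -0.01 after centring on the array median and -0.08 as the mean of its 2 probe sets. Hk2, the inducible form and a HIF target, had 6.91, 6.74, 5.89, 6.66 and 6.63 denervated and 6.95, 7.01, 6.73, 6.61 and 6.75 contralateral. Denervated array 3 lay far below the rest, and without it the difference of -0.24 ± 0.17 (adjusted p = 0.816) was -0.08. The same array was the lowest of all 10 for Pgam1, Bnip3, Ndrg1 and P4ha2 and the highest for Aldoa, Pfkm, Pgk1 and Epas1. It is the array with the dental epithelium score of -2.51, whose part in these values was not tested.

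Aldolase splits the sugar into triose phosphates, and triose phosphate isomerase interconverts them. Aldoa had 9.61, 9.56, 10.17, 9.63 and 9.63 denervated and 10.01, 9.81, 9.72, 9.64 and 9.81 contralateral, a difference of -0.08 ± 0.12 (adjusted p = 0.904). Without the high denervated array 3 it was -0.19, and all 5 probe sets gave values below 0, from -0.21 to -0.08. Aldoc, the brain type aldolase, was dim, with means of 2.11 ± 0.33 and 1.95 ± 0.23 (SD, n = 5). Tpi1 differed by 0.10 ± 0.10, of which pair 3 gave 0.38 and the other pairs between -0.04 and 0.10; without contralateral array 3 it was 0.03.

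The 4 measured enzymes of the later steps all differed by 0.06 or less. Pgk1, which makes the first ATP of the pathway, had 8.08, 8.21, 8.30, 8.04 and 7.73 denervated and 8.24, 8.01, 7.86, 8.12 and 8.06 contralateral. Its difference was 0.02 ± 0.11, with a 95% interval from -0.23 to 0.26, and its adjusted p was 0.981. Pkm, pyruvate kinase, differed by 0.06 ± 0.11 (-0.18 to 0.30), Ldha, the lactate dehydrogenase subunit of glycolytic tissue, by 0.01 ± 0.10 (-0.20 to 0.23), and Pgam1, phosphoglycerate mutase, by -0.00 ± 0.11 (-0.23 to 0.23). None of these signs is settled: without denervated arrays 2 and 3 the 4 values were -0.11, -0.06, -0.07 and 0.09, and centring gave -0.03 for Pgk1 and for Ldha.

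The pair differences of Pgk1, Pkm and Ldha had the same sign in pairs 1, 2, 3 and 5. In pair 3 the 3 genes were higher on the denervated side by 0.44, 0.41 and 0.42, and in pair 2 by 0.21, 0.24 and 0.13. In pair 5 they were lower, by -0.33, -0.34 and -0.27. Aldoa and Tpi1 followed in pair 3, with 0.44 and 0.38, while Pgam1 was at -0.21 there. Contralateral array 3 was the lowest of the 10 arrays in 5 of the 23 members with a mean of 4 or more (21.7%, against 14.3% of all such genes) and the highest in none. That array also had the lowest cell cycle score, -0.76 against -0.15 to 0.43 on the others. The list's 11 markers had a mean level of 5.47 to 5.99 denervated and 4.80 to 5.70 contralateral, all 11 higher in the mean on the denervated side (10 without denervated arrays 2 and 3), and their part in the enzyme values was not tested.

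**Figure D3:**
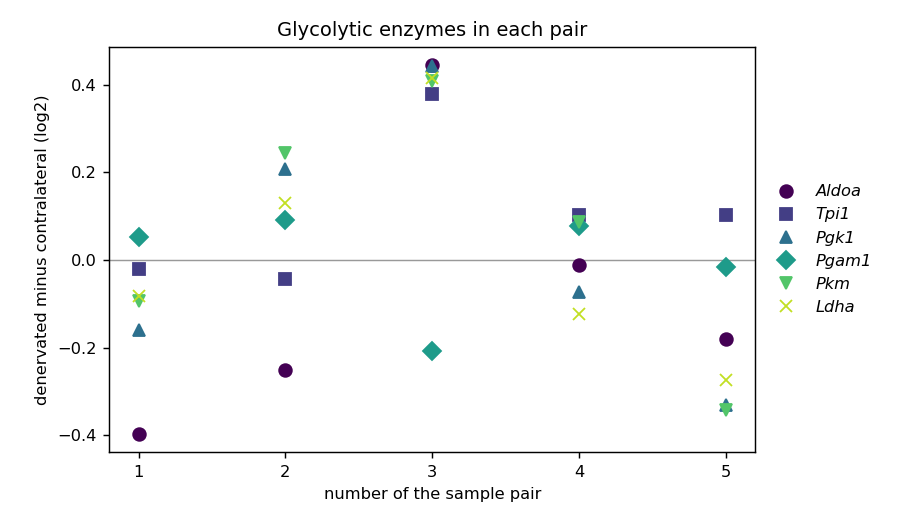
Denervated minus contralateral difference (vertical axis, log2) of 6 glycolytic enzyme genes in each of the 5 pairs (horizontal axis). In pair 3 Aldoa, Tpi1, Pgk1, Pkm and Ldha lie between 0.38 and 0.44 with Pgam1 at -0.21, and in pair 5 Pgk1, Pkm and Ldha lie between -0.34 and -0.27.

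Regulators of flux were variable and partly dim. Pfkfb3, which makes the activator of phosphofructokinase and is induced by hypoxia, had 3.11, 2.51, 3.34, 3.47 and 3.29 denervated and 3.54, 3.79, 3.45, 3.08 and 3.59 contralateral. Pair 2 differed by -1.28 and pair 4 by 0.39, and the mean difference was -0.35 ± 0.18 (adjusted p = 0.791), or -0.19 without denervated array 2. Pfkfb4, a second enzyme of this family, lay between 3.22 and 3.49 on 9 arrays and at 4.13 on denervated array 2, a difference of 0.10 ± 0.16 (adjusted p = 0.906) that was -0.06 without denervated arrays 2 and 3. The Schwann cell score of that array was 1.64, against -0.47 to 0.41 on the others, with mean levels of its 8 measured markers from 2.90 to 4.97 denervated and 2.86 to 3.43 contralateral. Of these markers 6 were higher in the mean on the denervated side, and 3 without denervated arrays 2 and 3; their part in the Pfkfb4 value was not tested.

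Pdk1, the kinase that shuts pyruvate out of mitochondria, varied more between pairs than within them. It had 6.57, 6.29, 6.28, 5.42 and 6.34 denervated and 6.44, 6.37, 6.22, 5.15 and 5.97 contralateral. Both arrays of pair 4 were the lowest of their groups. The means over both sides had an SD of 0.48, against an SD of 0.18 for the pair differences, which lay between -0.08 and 0.37. The mean difference was 0.15 ± 0.27 (adjusted p = 0.917), and its standard error was 0.08 with the pair as a block (adjusted p = 0.573). It was -0.07 without contralateral array 4, 0.34 without denervated array 4 and 0.08 without denervated arrays 2 and 3. Within pairs 1, 4 and 5 Pdk1 differed by 0.137, 0.265 and 0.371. The 2 brighter of its other probe sets gave -0.20 and 0.02, so the sign is not settled; both were also lowest in pair 4, at 3.61 and 3.27 denervated and 3.84 and 3.07 contralateral.

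Hif1a, whose protein rather than transcript is the main target of oxygen sensing, had 9.35, 9.24, 9.22, 9.16 and 9.20 denervated and 9.23, 9.15, 9.21, 9.19 and 9.04 contralateral. Its range of 0.31 over the 10 arrays was the smallest of the 23 members with a mean of 4 or more. The difference was 0.07 ± 0.07 (95% interval -0.07 to 0.21; adjusted p = 0.84). Epas1, which encodes HIF-2 alpha and is known from endothelium, had 8.78, 8.89, 8.93, 8.54 and 8.58 denervated and 8.64, 8.75, 8.76, 8.52 and 8.43 contralateral. The groups overlapped widely, yet each denervated value was above that of its own pair, by 0.14, 0.14, 0.17, 0.02 and 0.15. The mean difference was 0.12 ± 0.10 (adjusted p = 0.827, or 0.551 with the pair as a block), and 0.01 without denervated arrays 2 and 3. That last value keeps contralateral arrays 2 and 3, the highest of their side, whereas pairs 1, 4 and 5 alone gave 0.14, 0.02 and 0.15. The endothelium score of 12 markers differed by 0.61 and 0.57 in pairs 2 and 3 and by -0.08, -0.08 and -0.09 in pairs 1, 4 and 5, with mean levels of 4.31 to 5.16 denervated and 4.40 to 4.71 contralateral and all 12 markers higher in the mean. Without denervated arrays 2 and 3 only 3 of the 12 were higher, with a median of -0.11 in place of 0.17. The part of endothelial genes in the Epas1 value was not tested.

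Neither of the oxygen-reading hydroxylases passed the test. Egln1, the main HIF prolyl hydroxylase, had means of 5.70 ± 0.08 and 5.79 ± 0.21 (SD, n = 5) and a difference of -0.10 ± 0.10 (adjusted p = 0.854). Its other probe set gave 0.25, and the mean of both gave 0.08. Egln3, strongly inducible by hypoxia in many cells, stayed at 0.49 to 0.80 on all 10 arrays, where no level can be read.

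Mitochondrial hypoxia genes were represented by a mitophagy receptor and a respiratory chain factor. Bnip3, the receptor that marks mitochondria for removal, had 7.56, 7.43, 7.38, 7.59 and 7.45 denervated and 7.76, 7.91, 7.62, 7.59 and 7.70 contralateral. All denervated arrays but the fourth lay below all contralateral ones, and in pair 4 both sides were equal within 0.01. The means were 7.48 ± 0.09 and 7.72 ± 0.13 (SD, n = 5), a difference of -0.24 ± 0.08 (SE; 95% interval -0.41 to -0.06; 0.849-fold), with an unadjusted p of 0.0118 and an adjusted p of 0.79. Leaving out any single array kept it between -0.27 and -0.19, and it was -0.19 without denervated arrays 2 and 3. Higd1a, a HIF-induced factor of the respiratory chain, had equal means of 7.96 and 7.96, and its difference of 0.00 ± 0.09 was -0.04 after centring and -0.02 after quantile normalization.

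The other hypoxia-induced genes had differences of either sign. Ndrg1, a stress gene induced by HIF in many cells and known from Schwann cells and epithelium, had 9.96, 9.85, 9.53, 10.04 and 9.90 denervated and 10.12, 10.24, 9.99, 9.75 and 10.26 contralateral. It was lower in pairs 1, 2, 3 and 5, by -0.16, -0.40, -0.46 and -0.37, and higher by 0.29 in pair 4. The mean difference was -0.22 ± 0.12 (adjusted p = 0.793), -0.14 without denervated array 3 and -0.10 without denervated arrays 2 and 3. All 5 probe sets had values below 0, from -0.39 to -0.22, and each was lower in 4 of 5 pairs.

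Ddit4, which restrains the growth kinase mTORC1 under hypoxia and other stress, had 8.44, 9.06, 8.68, 8.75 and 8.29 denervated and 8.35, 8.70, 8.40, 8.78 and 8.30 contralateral. Both arrays of pairs 2 and 4 lay above those of pairs 1 and 5, and the difference of 0.14 ± 0.15 (adjusted p = 0.863) was -0.01 without denervated arrays 2 and 3. Within pairs 1, 4 and 5 Ddit4 differed by 0.09, -0.03 and -0.01. Adm, the vasodilator peptide adrenomedullin, had means of 2.40 ± 0.31 and 2.19 ± 0.18 (SD, n = 5). It was higher in 4 of 5 pairs, by 0.72 in pair 4 and lower by -0.51 in pair 5, a difference of 0.21 ± 0.14 (adjusted p = 0.815) at a dim level, or 0.14 without denervated arrays 2 and 3. Ankrd37 and Car9, both used as hypoxia markers, were dim. Ankrd37 was at 2.21 on denervated array 1 and between 1.22 and 1.64 on the other 9, and its difference of 0.19 ± 0.15 (adjusted p = 0.827) was 0.03 without that array. Car9 lay between 0.45 and 0.95.

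The collagen prolyl hydroxylases, a role of only 2 genes, had the largest negative mean difference of the 8 roles, -0.32. It was -0.20 with all probe sets of each gene averaged and -0.23 without denervated arrays 2 and 3. The enzyme of these genes hydroxylates proline in new collagen chains, without which the triple helix is unstable, and both genes respond to HIF. P4ha1 had 5.54, 5.26, 6.08, 5.96 and 5.86 denervated and 6.17, 6.08, 6.01, 6.21 and 6.41 contralateral. Of the denervated arrays only array 3 reached into the contralateral range. The means were 5.74 ± 0.34 and 6.18 ± 0.15 (SD, n = 5), a difference of -0.44 ± 0.15 (SE; 95% interval -0.77 to -0.11; 0.737-fold), with an unadjusted p of 0.0132 and an adjusted p of 0.79. Leaving out any single array kept it between -0.53 and -0.32. Its second probe set, with a mean of 2.29, gave 0.04 and so did not show the difference.

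P4ha2 had 8.73, 8.53, 8.36, 8.72 and 8.85 denervated and 8.91, 8.82, 8.78, 8.71 and 8.96 contralateral, lower in 4 pairs and level in pair 4 (0.01). Its difference was -0.20 ± 0.10 (adjusted p = 0.79, unadjusted p = 0.0676, or 0.0422 with the pair as a block) and -0.07 without denervated arrays 2 and 3. That of P4ha1 was -0.40 without them (unadjusted p = 0.00916, adjusted p = 0.989, limma). The mean of both genes was lower in all 5 pairs, by -0.41, -0.56, -0.18, -0.12 and -0.33, though neither gene alone was. The mean of the mitochondrial hypoxia genes Bnip3 and Higd1a was also lower in all 5 pairs, by -0.09, -0.37, -0.08, -0.04 and -0.01. The odontoblast score of 9 markers, all with a mean of 4 or more and 6 of them lower, differed by -0.21, -0.55, 0.20, -0.14 and 0.04 in the same pairs. Its mean level was 9.77 to 10.51 denervated and 10.30 to 10.42 contralateral, and its part in the P4ha values was not tested.

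**Figure D4:**
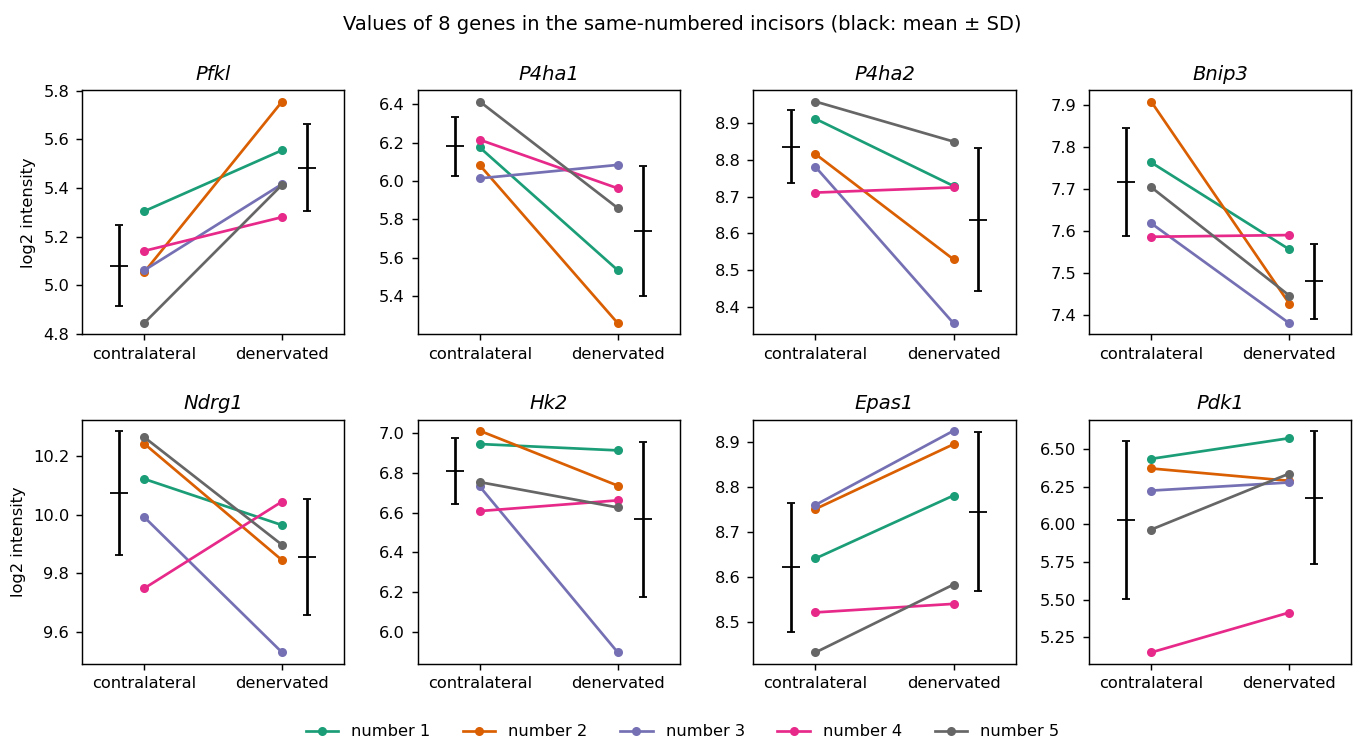
Log2 intensity (vertical axes, scaled per gene) of Pfkl, P4ha1, P4ha2, Bnip3, Ndrg1, Hk2, Epas1 and Pdk1 in the contralateral and denervated incisors. Lines join arrays of the same number, and black bars show mean ± SD (n = 5). All 5 lines of Pfkl and Epas1 run upward; Pdk1 is low on both sides of pair 4, and Hk2 is at 5.89 on denervated array 3.

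The rest of the pathway was read from 3 lists of other genes, and none of their members passed the test. At an unadjusted p under 0.05, against 4.1% of all genes higher and 2.11% lower, limma gave 3 higher and 3 lower genes among other glycolysis and lactate genes, 4 and 4 among other hypoxia response genes, and 0 and 0 among genes of the tricarboxylic acid cycle and respiratory chain. Of 30 other glycolysis and lactate genes 26 were measured, and 14 had a higher mean (53.8%, against 55.8% of all genes) and 12 a lower one, with a median of 0.01. The 2 with the smallest p were Ldhb and Slc16a1. Ldhb, the lactate dehydrogenase subunit of oxidative tissue, had 10.77 ± 0.16 denervated and 10.46 ± 0.11 contralateral (SD, n = 5), a difference of 0.31 ± 0.09 (adjusted p = 0.79) that was above 0 in 5 of 5 pairs, beside the 0.01 of Ldha. Without denervated arrays 2 and 3, where Ldhb was highest, its difference was 0.21, beside -0.07 for Ldha. Slc16a1, a monocarboxylate transporter that carries lactate in either direction, had 7.89 ± 0.11 and 7.64 ± 0.12, a difference of 0.25 ± 0.08 (adjusted p = 0.79), also above 0 in 5 of 5 pairs. These were the 2 of 26 genes higher in all 5 pairs, and 4 were lower in all 5, against 6.58% and 3.8% of all genes. The lower ones, named after their values were seen, were Minpp1 (-0.26), Pdk3 (-0.09) and the dim Fbp2 (-0.24) and Slc16a8 (-0.07), with adjusted p from 0.79 to 0.895 in limma.

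Of 40 other hypoxia response genes 37 were measured and 24 had a higher mean (64.9%, against 55.8% of all genes), with a median of 0.07. Among those with a mean of 4 or more, 63% were higher, against 63.9% of all such genes. Without denervated arrays 2 and 3, 17 of the 37 were higher (45.9%, median -0.01), against 49.1% of all genes. The 2 with the smallest p were Stc2, a secreted stress glycoprotein, at 0.87 ± 0.18 (adjusted p = 0.79; 0.73 without those arrays), and Wsb1, a subunit of a ubiquitin ligase, at 0.33 ± 0.11 (adjusted p = 0.79). In all 5 pairs 4 of the 37 were higher and 3 lower, against 6.58% and 3.8% of all genes. The higher ones, also named after their values were seen, were Stc2, Car12 (0.54), Hmox1 (0.39) and Gbe1 (0.16), with adjusted p from 0.79 to 0.802 in limma. The lower ones, named after their values were seen, were Plod2 (-0.48), a lysyl hydroxylase of collagen, Lox (-0.41), which cross-links collagen, and Narf (-0.22), each with an adjusted p of 0.79 in limma. Of 45 genes of the tricarboxylic acid cycle and respiratory chain 41 were measured and 30 had a higher mean (73.2%, against 55.8% of all genes). Among those with a mean of 4 or more, 73.7% were higher, against 63.9% of all such genes. The median was 0.035 in the list and in this part of it, against 0.044 for all such genes. Centring on the array median left 19 of the list higher (46.3%, against 42.2% of all genes), with a median of -0.01. Fh1, fumarate hydratase, differed by 0.16 ± 0.08 (adjusted p = 0.79) and Sdhc, a subunit of succinate dehydrogenase, by 0.20 ± 0.11 (adjusted p = 0.793), which was 0.06 without denervated arrays 2 and 3.

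Across roles, the arrays that stood out were not the same ones from gene to gene. Among the 23 members with a mean of 4 or more, denervated array 3 and contralateral array 3 each held the lowest value of 5 genes (21.7%). Their shares of all genes with such a mean were 10.2% and 14.3%. Denervated array 5 held the lowest value of 4 genes (17.4%, against 17.6%). Denervated arrays 1, 2 and 3 and contralateral arrays 2 and 5 each held the highest value of 4 genes (17.4%). Of all genes with such a mean, these arrays held the highest value in 4.65%, 27%, 18.8%, 7.67% and 7.07%. Contralateral array 3 held it in 2.08% of all such genes and in none of the members.

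**Figure D5:**
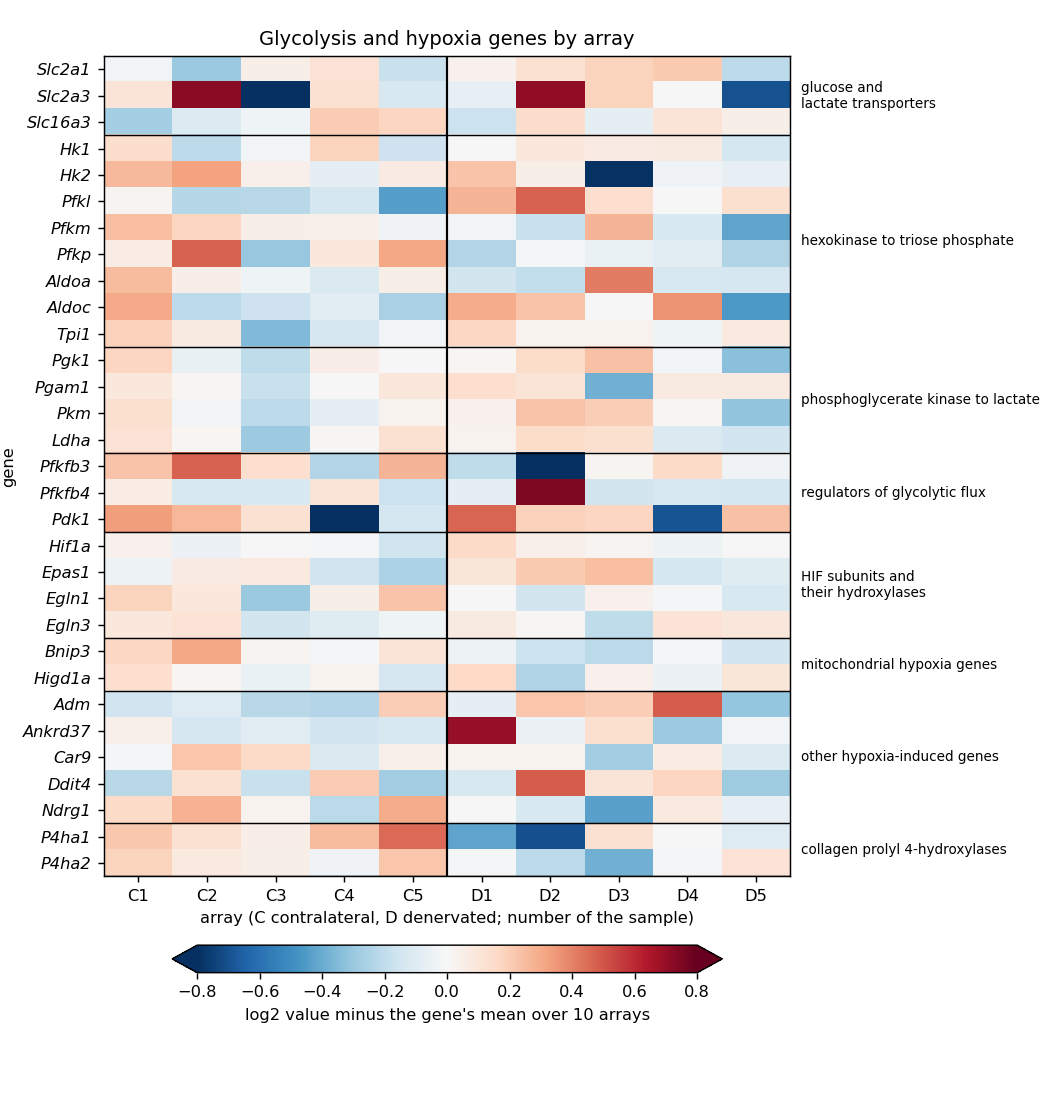
Log2 value minus the gene's mean over 10 arrays (colour, from -0.8 to 0.8) for the 31 genes (rows, grouped by role) on the contralateral (C) and denervated (D) arrays 1 to 5. Pfkl is above its mean on all denervated arrays but the fourth, where it is level; Pdk1 is low on C4 and D4, and Hk2 on D3.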

How the data were processed

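Total RNA of 10 incisor samples was labelled with biotin and hybridised to oligonucleotide arrays. The authors deposited log2 intensities per probe set; the submitters' processing notes name RMA, a method of background correction and probe summary, and give no version. The log2 values ran from -0.16 to 13.21, with array medians of 1.48 to 1.54, and are lower than RMA usually gives. Which variant was used is not known, and low values depend on it. No detection calls were used, so low values could not be called present or absent.

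Of 45101 probe sets 64 controls were left out. Of the rest 34945 carry 1 symbol in the supplied platform annotation, 932 several and 9160 none, giving 18193 genes, 18032 matched to RefSeq with 0 symbols changed. Groups were compared with limma 3.58.1 in R 4.3.3 (lmFit, eBayes, Benjamini-Hochberg over all genes, threshold 0.05), without the pair as a term; the same fit with the pair as a block was run beside it. The design text names 5 mice but not that equal numbers mark a mouse. Over all genes, the deviations of arrays from their group means correlated at 0.182 to 0.572 for equal numbers (5 pairs) and at -0.408 to 0.221 for unequal ones (20 pairs), so the numbers were taken as pairs. Scores are means of gene-centred log2 values.

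The members and all gene lists were chosen with earlier results of these data known. All measured members are named; from the other pathway lists, the 2 genes with the smallest p, since none passed. Alternatives were the block, averaging all probe sets of a gene, quantile normalization, centring on the array median of genes with a mean of 4 or more, that filter, a trended robust eBayes, and leaving out arrays or pairs; counts of members without denervated arrays 2 and 3 or without their pairs were added after seeing the data.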

Additional observations from a re-analysis of the deposited data

Results flagged for a closer look

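Among 64 sets of 5 arrays (31 genes and their mean score, in both groups) 6 had a single array far from the other 4, measured as its gap to the nearest array divided by the whole range; by chance about 1 in 20 such sets is listed. On denervated array 3, Hk2 was low at 5.89 against 6.63 for the next array (gap share 0.717), Pgam1 was low at 8.51 against 8.96 (0.877), and Aldoa was high at 10.17 against 9.63 (0.883). On denervated array 2, Pfkfb4 was high at 4.13 against 3.31 (0.920). On denervated array 4, Pdk1 was low at 5.42 against 6.28 (0.746); contralateral array 4 was the lowest of its group too. On contralateral array 3, Ldha was low at 7.97 against 8.27 (0.731).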

How the results depend on the processing

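No alternative gave a call among the 31 members or the 3 other pathway lists, and 0 genes of the array were called with the replicate block; leaving out 1 array or pair gave 0 to 1 genes of the array, the 1 being Fcna without pair 4 under the block. The group's median difference lay between -0.06 and 0.06 and the number of higher members between 13 and 19. Of 674 alternative differences of single members 609 kept their sign, and 17 members kept it throughout, Pfkl, Bnip3, P4ha1, P4ha2, Ndrg1, Hk2 and Epas1 among them. The differences whose sign changed were at most 0.15 in size, though several others of that size kept theirs. After centring these were Egln3 -0.009, Higd1a -0.041, Hk1 -0.009, Ldha -0.029, Pgk1 -0.025 and Slc16a3 -0.024; after quantile normalization Higd1a -0.023, Ldha -0.009, Pgk1 -0.005 and Slc2a3 -0.003; with the mean of probe sets Egln1 0.077, Egln3 -0.034, Higd1a -0.045, Hk1 -0.077 and Pdk1 -0.026; without denervated arrays 2 and 3 Ddit4 -0.012, Hk1 -0.007, Ldha -0.074, Pfkfb4 -0.061, Pgam1 0.092, Pgk1 -0.106, Pkm -0.061 and Slc2a3 -0.230. Leaving out 1 array or pair, differences ranged as follows: Aldoa -0.210 to 0.000, Egln3 -0.012 to 0.087, Higd1a -0.056 to 0.065, Hk1 -0.033 to 0.082, Ldha -0.088 to 0.084, Pdk1 -0.071 to 0.340, Pfkfb4 -0.088 to 0.187, Pgam1 -0.045 to 0.095, Pgk1 -0.090 to 0.104, Pkm -0.027 to 0.161, Slc16a3 -0.048 to 0.072 and Slc2a3 -0.218 to 0.235. The cause of these changes was not tested. Values below 2 cannot be told from background, and 5 arrays a group limit what can be seen: the median standard error was 0.10.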
